A study of Homo sapiens with 3 samples.

Results

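Small nucleolar RNAs (snoRNAs) are short stable RNAs that guide the chemical modification of ribosomal RNA, and a few of them serve in the cleavage of its precursor. H/ACA RNAs (symbols starting with SNORA) guide pseudouridylation with dyskerin (DKC1), C/D RNAs (SNORD) guide ribose methylation with fibrillarin (FBL), and Cajal body RNAs (SCARNA) carry either or both box types and act on spliceosomal RNAs. Most human snoRNAs are cut out of the introns of a host gene, whereas U3 and U13 have genes of their own. These RNAs work in the nucleus, while DDX6 is known as an RNA helicase of cytoplasmic P-bodies, where it takes part in mRNA decapping and translational repression.

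The rows described here were chosen by symbol (SNORA, SNORD or SCARNA) and by read total, with 10 or more reads in any of the 3 libraries as the minimum. Of 36817 rows with a gene name, 27 had such a symbol, and 9 of those met the read minimum: 3 H/ACA rows, 6 C/D rows and no Cajal body row. The symbol table lists 553 symbols of these classes (214 SNORA, 314 SNORD, 25 SCARNA), so the count rows cover few of them and hold no Cajal body RNA above the minimum. The authors' lists of clustered read regions are wider. They name 224 genes of the classes, 77 SNORA, 128 SNORD and 19 SCARNA, of which 11 also have a count row, and the contrast between the classes was drawn from these lists. Sequences of these RNAs are not shown here.

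The study used eCLIP, in which ultraviolet light links proteins to RNA in living cells before the protein is immunoprecipitated (IP) and its RNA fragments are sequenced. All libraries came from MOLM-13, a human acute myeloid leukaemia cell line, with no further treatment named. DDX6 was recovered with an antibody in 2 IP libraries, replicates 1 and 2, and 1 input library served both. The labels do not say if the replicates were grown apart, so the p-values below rest on a spread between 2 libraries that may be technical.

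Depth was 4643494 counted reads in IP replicate 1, 1244213 in IP replicate 2 and 7807540 in the input, of which 67.6%, 62.6% and 30.7% were exonic. All 11 myeloid markers looked for had at least 25 exonic reads in the input. Of 7 markers of other cell types, 6 had a row, and their input reads ranged from 0 to 27. Reads in the 9 snoRNA rows all lay in non-coding exons.

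Reads from snoRNA rows took a smaller share of both IP libraries than of the input. The 9 rows held 0.197% of counted reads in IP replicate 1 (exact Clopper-Pearson 95% interval 0.193 to 0.201%), 0.192% in IP replicate 2 (0.185 to 0.200%) and 0.525% in the input (0.520 to 0.530%). The input share was 2.70 times the IP mean of 0.194% ± 0.00310 (SD, n = 2). The 3 H/ACA rows were lower still against the input, with 0.00439% and 0.00498% in the IP libraries and 0.0339% in the input, a ratio of 7.24. SNORA31B alone held 2516 of the 2650 H/ACA input reads, so this ratio is mostly that of a single row. SNORA11F had IP to input ratios per counted read of 0.33 and 0.26, beside 0.39 and 0.37 for the C/D row SNORD3A. For the 6 C/D rows the shares were 0.192%, 0.187% and 0.491%, a ratio of 2.59. Intervals cover counting error only. An exact permutation test of 2 libraries against 1 cannot give a p below 0.333. Over exonic reads alone, which are scarcer in the input, the ratios were 5.72 for all rows, 15.3 for H/ACA and 5.49 for C/D. A lower share in the IP is relative to all other RNA recovered with it, and a smaller recovery of snoRNA cannot be told apart from a larger recovery of other RNA.

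**Figure D1:**
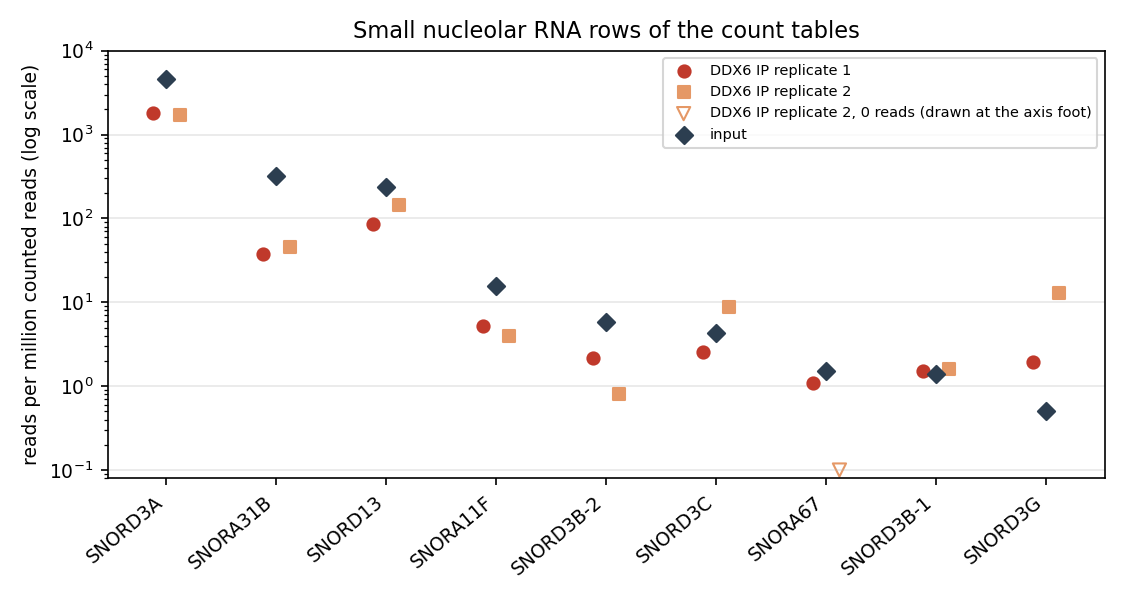
Reads per 1000000 counted reads (RPM, log scale) for the 9 snoRNA rows in each of the 3 libraries. SNORD3A, SNORA31B, SNORD13, SNORA11F, SNORD3B-2 and SNORA67 lie below the input in both IP libraries. SNORD3G lies above it in both, and SNORD3B-1 slightly above it in both.

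U3, the C/D RNA of the processome that cleaves the ribosomal RNA precursor, supplied most of these reads. SNORD3A (ENSG00000263934.2), its main gene, had 8494 reads in IP replicate 1, 2122 in IP replicate 2 and 36429 in the input, which was 93.0%, 88.7% and 88.8% of all reads in the 9 rows. In reads per 1000000 counted (RPM) its levels were 1829, 1706 and 4666, so both IP libraries were low and close to each other. With TMM-scaled exonic reads in edgeR's quasi-likelihood test it fell by 2.63 on the log2 scale (SE 0.39, Benjamini-Hochberg adjusted p = 1.26e-07), a 6.18-fold difference. Its listed regions at chr17:19091355-19091485 (hg19, plus strand) had a length-weighted mean log2 fold of -0.88 in IP replicate 1 and -1.48 in IP replicate 2.

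The other U3 copies gave few reads and did not move alike. SNORD3B-2 (ENSG00000262074.3) had 10, 1 and 45 reads and a log2 fold of -2.91 (SE 0.61, edgeR adjusted p = 0.00013). Without IP replicate 1, leaving a single IP read, its fold was -3.98. SNORD3C (ENSG00000264940.2) had 12, 11 and 34 reads and did not pass the edgeR test (log2 fold -1.18, SE 0.59, adjusted p = 0.127). In RPM SNORD3C was below the input in IP replicate 1 (2.58 against 4.35) and above it in IP replicate 2 (8.84). SNORD3B-1 (ENSG00000265185.2) had 7, 2 and 11 reads, or 1.51, 1.61 and 1.41 RPM, and was too low to test. SNORD3G (ENSG00000199666.1), which the authors' table names only as U3, had more reads in the shallower IP libraries than in the input, at 9, 16 and 4. Its ratio of IP to input per counted read was 3.78 (95% counting interval 1.06 to 16.8) in IP replicate 1 and 25.1 (8.10 to 103) in IP replicate 2, and it was also below the minimum for testing. The U3 copies are near-identical in sequence, so the way reads were split between them is uncertain.

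Just below the read minimum lay SNORD3P1, a U3 pseudogene, with 9, 7 and 0 reads, SNORA10B with 4, 0 and 8, and SNORA80C with 2, 0 and 8. With a floor of 3 in place of its 0 input reads, SNORD3P1 was 5.04-fold higher in the IP for replicate 1 and 14.6-fold higher for replicate 2. With counting error included and no floor, the 95% lower limits of the ratio were 3.32 and 9.04. Just inside the minimum were SNORD3B-1 and SNORA67, with 11 and 12 input reads.

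SNORD13 (U13, ENSG00000239039.1), the C/D RNA that directs acetylation of a base in the small-subunit ribosomal RNA, had 395, 178 and 1829 reads. Its levels were 85.1, 143 and 234 RPM, so both IP libraries were below the input and differed from each other. In the edgeR test SNORD13 fell by 2.29 on the log2 scale (SE 0.27, adjusted p = 1.51e-10), with -2.74 in IP replicate 1 alone and -1.88 in IP replicate 2 alone.

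Among the H/ACA rows, SNORA31B and SNORA11F were lower in both IP libraries. SNORA31B (ENSG00000253051.1, named SNORA31 in the authors' peak lists) had 175, 57 and 2516 reads, or 37.7, 45.8 and 322 RPM. It fell by 4.21 on the log2 scale in the edgeR test (SE 0.28, adjusted p = 1.18e-20), an 18.5-fold difference. With library size scaling in place of TMM the fall was smaller, at -2.97 (edgeR adjusted p = 7.91e-18). SNORA11F (ENSG00000221164.1) had 24, 5 and 122 reads and fell by 2.93 (SE 0.41, edgeR adjusted p = 2.34e-08). SNORA67 (ENSG00000264772.2), encoded within EIF4A1, had 5, 0 and 12 reads and was not tested. It nevertheless had listed regions at chr17:7481272-7481409 (plus strand) in both peak lists, at -2.65 and -1.95.

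Of the 6 snoRNA rows tested, 5 were lower in the IP and none was higher, whereas 11.4% of the 10392 genes tested were lower and 16.7% were higher. The median log2 fold was -2.77 for the 6 rows, -3.57 for the 2 H/ACA rows and -2.46 for the 4 C/D rows, beside 0.0029 for all genes. The read minimum takes the highest of 3 libraries of unequal depth, so a row can enter through the deep input alone, and these counts are a description. With 1 residual degree of freedom, the test takes its spread from the IP pair and lends it to the single input. That spread was moderated over all genes tested, with 75.8 prior degrees of freedom. A small p-value therefore says little about the agreement of a gene's own IP pair. With scaling to library size in place of TMM the median of all genes moved to 1.24 and that of the 6 rows to -1.53, the other 4 rows called lower had -1.69 (SNORA11F), -1.66 (SNORD3B-2), -1.40 (SNORD3A) and -1.07 (SNORD13), each still past the edgeR threshold, and SNORD3C changed sign (log2 fold 0.046, edgeR adjusted p = 0.946).

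Across the 224 genes named in the peak lists, most snoRNA regions lay below the input, H/ACA genes further than C/D genes. The authors' lists hold every region where IP reads clustered, with a log2 fold over the input as their own value, and a gene with no IP cluster is not in them. In IP replicate 1, 360 of 383 regions of the 3 classes had a log2 fold below 0, beside 6.77% of all 123298 regions and 20.3% of the 4992 regions in non-coding exons. In IP replicate 2 it was 245 of 304, beside 2.92% of all 62411 regions and 22.4% of the 2165 in non-coding exons. Every region of the classes below 0 carries a -log10 p of 0 in these lists, which therefore give no p for a value lower than the input.

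Averaged per gene and weighted by region length, 74 of 75 SNORA genes were below 0 in IP replicate 1, with a median log2 fold of -2.65. For SNORD genes it was 111 of 124 with a median of -1.47, and for SCARNA genes 19 of 19 with a median of -1.49. In IP replicate 2 the counts were 63 of 72, 79 of 102 and 15 of 18, with medians of -1.62, -0.85 and -1.60. The SNORA median was thus below the SNORD median in each list, while the SCARNA median was near SNORD in IP replicate 1 and near SNORA in IP replicate 2. Both lists were scored against the same input, and genes are not replicates, so no test was made of the class difference.

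**Figure D2:**
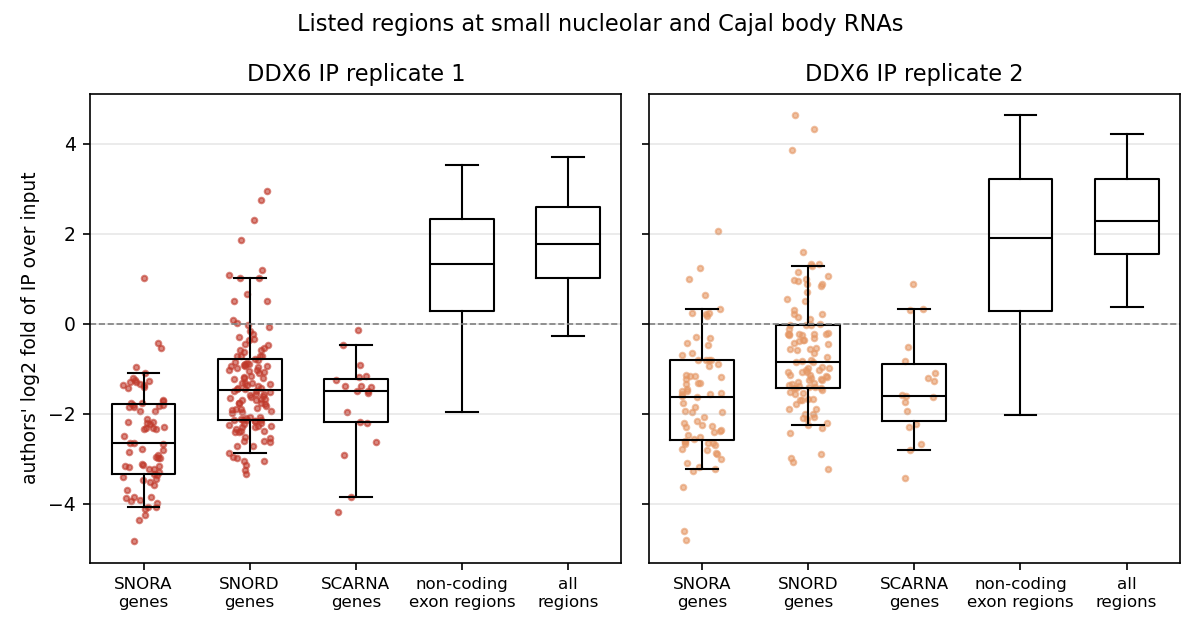
Each point is a gene of the 3 classes, placed by the authors' log2 fold over the input (length-weighted mean of its regions), with 1 panel per IP library and boxes for all listed regions beside them. Boxes show the median and quartiles and whiskers the 5th and 95th percentiles, and the SNORA, SNORD and SCARNA boxes lie below the boxes of all regions in both panels.

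Of the 4 lowest H/ACA genes, 3 sat in ribosomal protein genes. SNORA72, within RPL30, had -4.84 in IP replicate 1 and -4.61 in IP replicate 2. SNORA70, within RPL10, had -3.88 and -4.81, SNORA65, within RPL12, had -3.85 and -3.62, and SNORA54, within NAP1L4, had -4.24 and -3.18. The highest H/ACA gene was also in a ribosomal protein gene. SNORA62 (E2), within RPSA at chr3:39452544-39452700 (hg19, plus strand), was above 0 in both lists, at 1.03 and 2.07. SNORA6, elsewhere in RPSA, had -0.43 and 1.24, SNORA24B, within PARP16, had -1.29 and 1.002, and SNORA52, within RPLP2, had -0.55 and 0.21.

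C/D genes spanned a wider upper range. The lowest were SNORD17, within SNX5, at -3.34 and -3.08, SNORD87 at -2.86 and -3.24, SNORD97, within EIF4G2, at -3.06 and -2.99, and SNORD110, within NOP56, at -3.06 and -2.42. Among the highest were SNORD3P1 at 1.86 and 4.64, SNORD3G at 1.20 and 4.32 and SNORD90, within RC3H2, at 2.30 and 0.83. A region past a -log10 p of 3 and a log2 fold of 3 was listed for no gene of the classes in IP replicate 1 and for 2 SNORD genes in IP replicate 2, 1 of them SNORD3G with a -log10 p of 9.75. As regions, 0 of 383 and 2 of 304 of the classes passed both thresholds of 3, beside 11.5% of all regions in IP replicate 1 and 12.9% in IP replicate 2. At a log2 fold of 1 the counts were 5 and 10 genes, and the share over all regions at that fold was not computed. None of the 383 and 304 regions of the classes overlapped the authors' list of reproducible peaks, on the same strand by at least 1 base, beside 1.39% and 2.20% of all regions and 2.003% and 3.88% of those in non-coding exons.

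RNAs of the processing machinery differed among themselves. SNORA63 (E3), within EIF4A2, had -3.58 and -2.57. SNORA73B (U17), an H/ACA RNA needed for precursor cleavage and encoded within RCC1, had -1.35 and 0.32. The U14 genes, C/D RNAs with a part in both cleavage and methylation, had -2.40 and -1.33 for SNORD14A, -0.58 and 1.28 for SNORD14B and -1.39 and -0.56 for SNORD14E. SNORD14A and SNORD14B lie in the same host, RPS13, so RNAs of like sequence in a shared host differed by more than 1 log2 unit in each list.

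Cajal body RNAs were below 0 in 19 of 19 genes of IP replicate 1 and in 15 of 18 of IP replicate 2. By the mean over both lists SCARNA11, within CHD4, was the lowest, at -3.86 and -2.79, followed by SCARNA3, within COP1, at -2.63 and -3.43. In single lists the lowest were SCARNA23 in IP replicate 1, where alone it was listed, at -4.19, and SCARNA3 in IP replicate 2. SCARNA1, within PPP1R8, had -2.92 and -2.29, and SCARNA22, within NSD2, had -1.38 and -2.68. Those closest to or above 0 were SCARNA4 (-0.15 and 0.33), SCARNA14 (-1.40 and 0.88), SCARNA8 (-1.26 and 0.30) and SCARNA9 (-0.48 and -0.52).

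By box type, the H/ACA Cajal body RNAs had medians of -1.96 (n = 11) and -1.69 (n = 10), against -1.15 and -0.82 for the 3 C/D ones, SCARNA7, SCARNA9 and SCARNA17. The 4 with both box types, SCARNA5, SCARNA6, SCARNA10 and SCARNA12, had medians of -1.52 and -1.60. SCARNA21 (-1.49 and -1.28) was assigned no box type and is in none of these groups. The box types overlapped: the H/ACA group ran from -4.19 to -0.15 in IP replicate 1 and from -3.43 to 0.88 in IP replicate 2, which takes in all 3 C/D values.

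**Figure D3:**
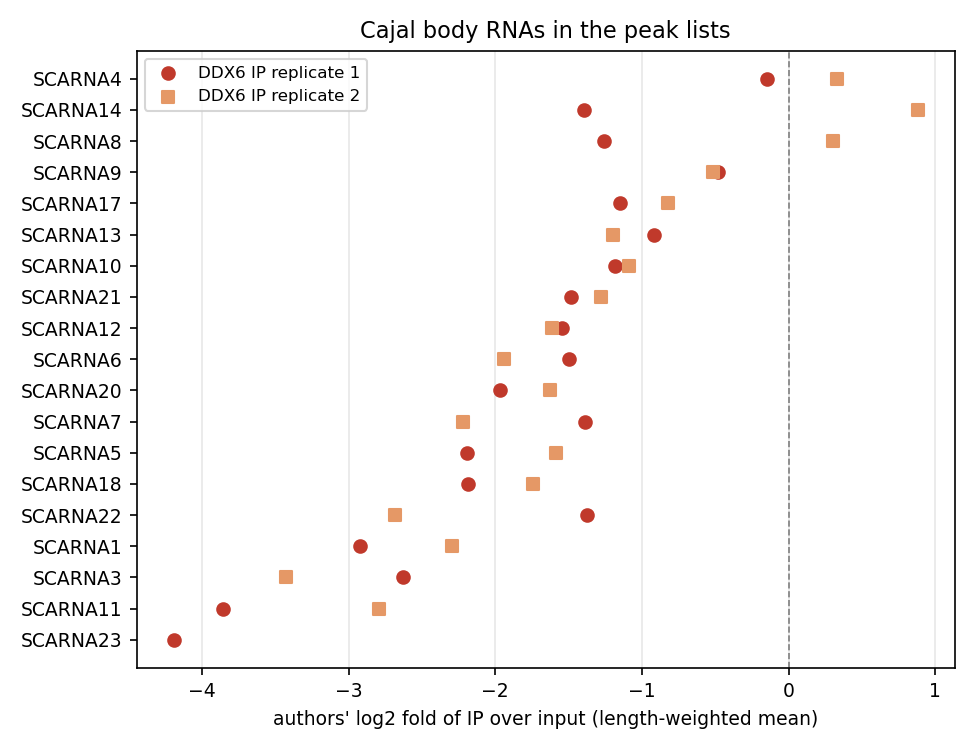
Authors' log2 fold of IP over input (length-weighted mean per gene) for the 19 Cajal body RNAs in the peak lists, ordered by their mean. All 19 values of IP replicate 1 are below 0, and SCARNA4, SCARNA8 and SCARNA14 are above 0 in IP replicate 2.

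Comparison with the host transcripts placed the snoRNAs far below the exons around them. The libraries as a whole also differ in exonic share, at 67.6% and 62.6% in the IP libraries and 30.7% in the input. With library size scaling the median log2 fold of exonic reads over all genes tested was 1.24. The host ratios below carry this difference, and the gap between snoRNAs and hosts was not computed without it. A single host gene was named in the authors' annotation for 190 of the 224 genes, giving 123 hosts. Host values were taken once per snoRNA gene, so a host with several is repeated in the medians and counts. For exons, 177 genes had 111 hosts in IP replicate 1 and 154 genes had 104 in IP replicate 2. On this basis the median log2 ratio of IP to input per counted read for host exons was 1.21 and 0.89. Host introns had -1.44 and -1.22. The snoRNA was below its host's exons for 173 of 177 genes in IP replicate 1 and for 145 of 154 in IP replicate 2, with median differences of -2.92 and -2.03. Against host introns the differences were small, with 122 of 179 and 87 of 158 genes lower and medians of -0.38 and -0.06. The measures are unlike: snoRNA values are the authors' log2 folds of clustered regions, and host values are ratios per counted read. For SNORD3A the authors' value and the ratio were -0.88 and -1.35 in IP replicate 1, and -1.48 and -1.45 in IP replicate 2. Differences as small as these medians may therefore come from the measures. Of the 224 genes, 11 had a count row of their own, so intronic reads of a host may include reads of the snoRNA itself. Their part in the small differences from host introns, and in the class counts below, was not tested.

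Against host introns the counts differed by class, with no test made. SNORA genes were below the introns of their host for 52 of 65 genes in IP replicate 1 and 45 of 63 in IP replicate 2, with median differences of -0.62 and -0.38. For SNORD genes it was 61 of 97 and 31 of 79, with medians of -0.22 and 0.16. For SCARNA genes it was 9 of 17 and 11 of 16, with medians of -0.02 and -0.28.

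Where H/ACA and C/D genes share a host they can be compared within the same host gene. Reads of the RNAs cut out of a host and reads of its uncut transcript were not told apart. The SNORA mean was below the SNORD mean in 9 of 10 such hosts in IP replicate 1 (median difference -1.50, range -2.09 to 0.02) and in 8 of 8 in IP replicate 2 (median -0.89, range -2.66 to -0.52). In NOP56, which encodes a core C/D protein, SNORA51 had -4.07 and -2.65, while SNORD56 had -1.45 and -0.44, SNORD57 -1.43 and -2.12, and SNORD110 -3.06 and -2.42. In RPS12, SNORA33 had -3.47 and -2.79, against -0.94 and -0.03 for SNORD101 and -1.88 and -0.23 for SNORD100. In EIF4A2, SNORA63 was the lowest, SNORA4 had -1.85 and -0.81, and SNORD2 had -0.63 and -0.22. The host with no lower SNORA mean was RPL5, where SNORA66 had -2.95 and SNORD21 -2.98 in IP replicate 1. These hosts were singled out after the values were seen, and genes of 1 host share its transcript and libraries.

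**Figure D4:**
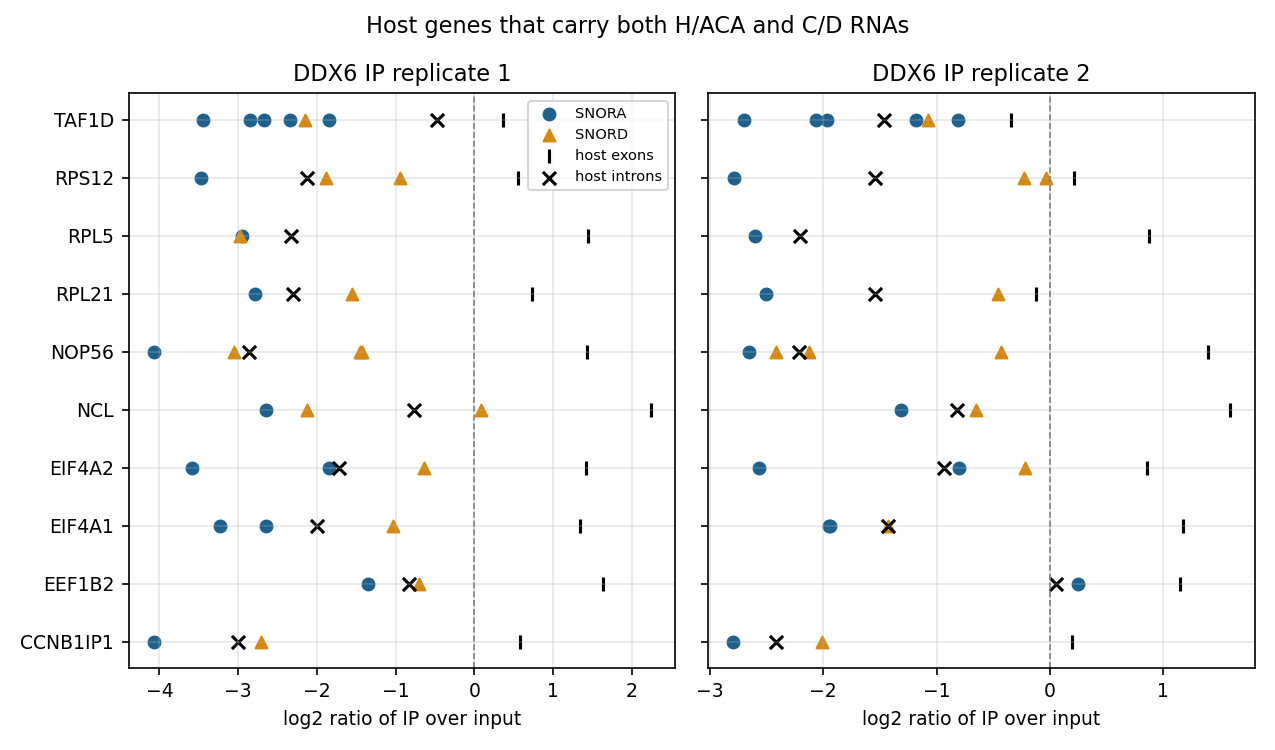
Log2 ratio of IP over input for the 10 host genes with both H/ACA and C/D RNAs, 1 panel per IP library. Coloured points are the authors' values per snoRNA gene, and black marks are the host's exonic and intronic reads per counted read; SNORA points lie mostly to the left of SNORD points, and host exons to the right.

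C/D genes in a shared host also varied. In RPL7A, SNORD36C had 0.50 and 1.32 and SNORD36B -0.35 and 0.21, whereas SNORD36A had -1.76 and -1.37 and SNORD24 -1.70 and -1.15. In RPL13A all 4 genes were below 0 in both lists: SNORD32A (-2.29 and -1.51), SNORD33 (-2.71 and -1.30), SNORD34 (-1.51 and -0.80) and SNORD35A (-1.67 and -1.43). In RABGGTB, SNORD45C had -0.07 and 0.72, against -1.63 and -1.66 for SNORD45A and -0.84 and -1.25 for SNORD45B.

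The mRNAs of snoRNA-binding proteins and maturation factors did not follow the snoRNAs. Of 30 tested, 9 were higher in the IP and none was lower in the edgeR test, with a median log2 fold of 0.31, beside 16.7% higher and a median of 0.0029 over all genes. Among the core C/D proteins, NOP58 rose (log2 fold 0.79, SE 0.26, edgeR adjusted p = 0.0165), with 164 and 134 CPM in the IP libraries and 87.3 in the input. FBL (-0.02), NOP56 (0.18) and SNU13 (-0.32) did not pass the test. No core H/ACA protein mRNA passed it: DKC1 had 0.17, NHP2 -0.21, NOP10 0.19 and GAR1 0.59.

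By sublist, 4 of 7 maturation factors rose, 2 of 9 assembly factors, 1 of 3 Cajal body proteins and 1 of 3 processome proteins. TGS1, which forms the trimethyl cap of U3, had 299 and 240 CPM in the IP libraries and 112 in the input (log2 fold 1.28, SE 0.26, edgeR adjusted p = 6.28e-05). COIL, the scaffold of Cajal bodies, had a log2 fold of 1.37 (SE 0.30, edgeR adjusted p = 0.000222), and PHAX, the adaptor that carries capped small RNAs, had 1.38 (SE 0.33, adjusted p = 0.000827). DIS3, a nuclease of the exosome, had 0.92. The others that rose were NUFIP1 (1.39) and RPAP3 (1.18) of snoRNP assembly, UTP3 (1.09) of the U3 processome and TENT4B (0.87), a poly(A) polymerase of RNA trimming. The maturation factors TOE1 (0.86), EXOSC10 (0.44) and PARN (-0.02) did not pass the test.

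**Figure D5:**
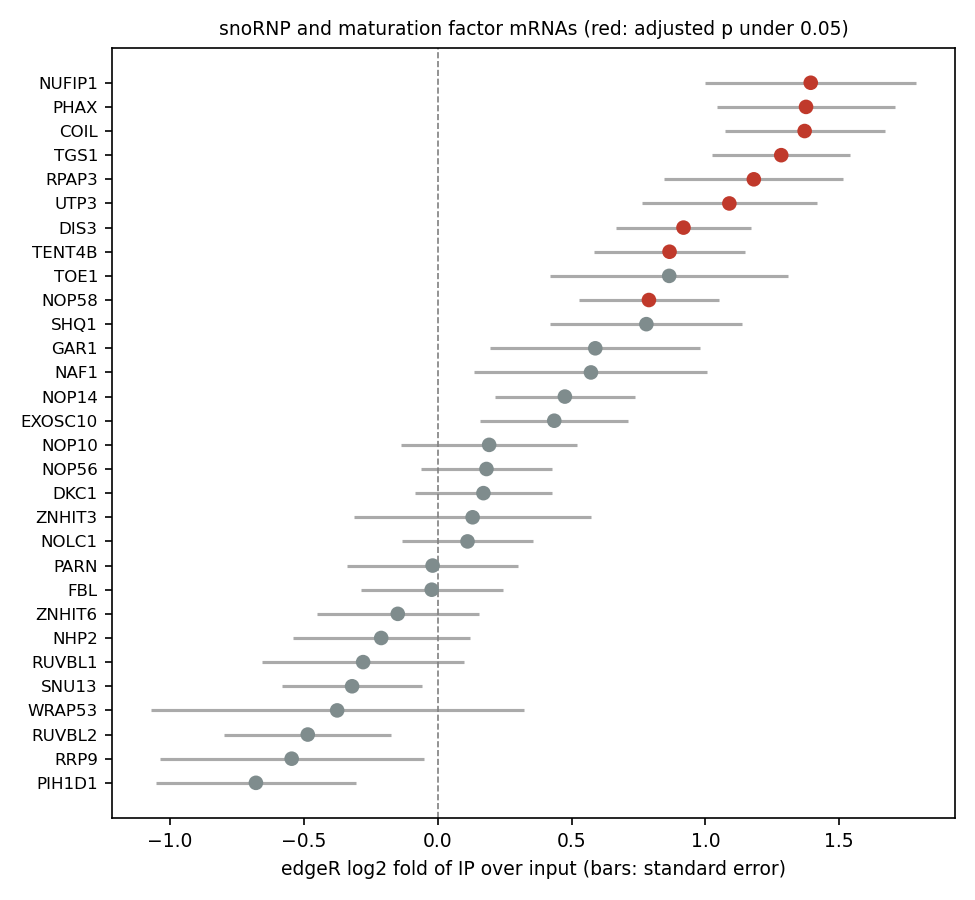
edgeR log2 fold of IP over input with its standard error for 30 mRNAs of snoRNA-binding and maturation factors. The 9 red points, from 0.79 to 1.39, passed the test, and none below 0 did.

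Other stable nuclear RNAs and spliced snoRNA host RNAs were also mostly lower in the IP. Of 10 spliceosomal RNA rows tested, 8 were lower and 1, RNU6-1, was higher (log2 fold 2.99, edgeR adjusted p = 7.08e-08), with a median of -1.52. RNU6-1 had 18 input reads, and RNU6-2, another U6 row with 189, had -0.06. How reads were split between U6 copies was not tested. Each U4 and U5 row was lower in IP replicate 1 than in IP replicate 2, such as RNU5A-1 (-2.98 and -0.47) and RNU4-2 (-4.56 and -2.60). RNU6ATAC went the other way (-0.59 and -1.09). Of 20 rows for non-coding host genes (the SNHG genes and GAS5, with SNHG25 on 2 rows), 15 were lower and none was higher, with a median of -2.45. The lowest was SNHG25 (ENSG00000266402.2) at -4.58, and GAS5 had -2.92, with 533 and 485 CPM in the IP libraries and 3846 in the input. Low IP to input ratios were thus also seen outside the snoRNA rows. Whether reads in the SNHG rows include reads of the snoRNAs they carry was not tested.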

How the data were processed

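For 2 DDX6 IP libraries and 1 input the deposited tables hold unscaled counts of reads by gene and part of the transcript. The genome build was hg19 and the tools included STAR, cutadapt, UMI-tools and SAMtools, per the submitters' processing notes. Versions, peak caller, counter and strandedness were not given in the sources used here. In addition, the deposited peak lists give each region a -log10 p and, also as the authors' value, a log2 fold of IP over input.

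Exonic counts were added up by gene, and those reaching 10 reads in 2 or more libraries were tested with edgeR 4.0.16 (TMM, quasi-likelihood test, R 4.3.3) with Benjamini-Hochberg adjustment over 10392 genes, called under 0.05. CPM refers to exonic reads after TMM scaling, with a prior count of 2 in the folds of single IP libraries. The common dispersion of 0.0272 equals a coefficient of variation of 16.5%. On simulated data over 10150 genes the test found 35% of 2-fold changes and 93% of 4-fold changes, with 3 false calls among 131. Apart from the changed genes, the simulated IP and input libraries had the same profile and the same common dispersion. The false calls of the real comparison cannot be read from it, as the single input may vary otherwise and differs in exonic share. Symbols came from the identifier table for 8 of the 9 rows and from the authors' peak list for SNORA67. Hosts are the other genes named in the authors' annotation of a region, and host ratios need at least 10 reads. Box types of Cajal body RNAs were assigned from general knowledge after values were seen. Named genes were, per class, the 4 lowest and 4 highest, those with most input reads, RNAs of precursor processing, genes with a peak past the threshold, the core proteins and the 4 other snoRNP mRNAs with the smallest p; in the peak lists the 4 lowest and highest were ranked by the mean over both lists, and other genes were named after their values were seen. 1 of the 4 highest C/D genes is not reported here. The members, lists and rules were chosen with earlier results of these data known. Alternatives were DESeq2 1.42.0, other read minimums, introns included, library size scaling, each IP library left out, exonic denominators, other peak thresholds and, chosen after seeing the data, other summaries of peak regions.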

Additional observations from a re-analysis of the deposited data

How the results depend on the processing

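No snoRNA row was called higher under any fit run. With at least 30 reads required in 2 libraries 3 rows were left to test and 3 were lower, among them 1 H/ACA row. DESeq2 called 4 of the 6 lower and gave no adjusted p for SNORD3B-2 and SNORD3C; over all genes it called 678 higher and 254 lower, against 1739 and 1188 in edgeR. Library size scaling called 6990 higher and 141 lower over all genes. The median log2 fold of all tested rows was -2.29 with a minimum of 1 read, -1.59 with introns included, -1.53 with library size scaling, and -2.93 to -2.72 without 1 IP library. For H/ACA rows it was -3.60 with DESeq2, -2.90 with a minimum of 1 read, -4.29 with 30 reads, -2.39 with introns, -2.33 with library size scaling, and -3.63 to -3.61 without 1 IP library. For C/D rows it was -1.73 with a minimum of 1 read, -1.29 with introns, -1.23 with library size scaling and -2.66 to -2.31 without 1 IP library. SNORD3C reversed to 0.021 with introns (adjusted p = 0.984) and 0.046 with library size scaling (adjusted p = 0.946). The cause of these shifts was not tested beyond the smaller number of rows at the higher minimum.

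On exonic denominators the ratio of input to IP share was 5.72 for all rows, 15.3 for H/ACA and 5.49 for C/D. Without 1 IP library the ratios ran from 2.67 to 2.73, 6.81 to 7.73 and 2.56 to 2.62. At a log2 fold of 1 rather than 3, 5 genes in IP replicate 1 and 10 in IP replicate 2 had a peak past the threshold. The share of all regions at that fold was not computed. A minimum of 5 reads gave 14 rows instead of 9. The Cajal body median was -1.38 and -1.31 with the highest region of each gene and -1.96 and -1.69 with regions named for no other gene, in IP replicates 1 and 2. Of 129 alternative values, 98 were labelled the same, 29 moved and 2 reversed. The same meant a kept call for a single row, a count within a set ratio, or another value within the spread between IP libraries. It does not mean an unchanged size: SNORD3A went from -2.63 to -1.40 with library size scaling under that label. Overlap with a gene annotation was not run, as none of this build was used here. No paired analysis was possible because the input carries no replicate number and is shared by both IP libraries.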

Other observations

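The SNORD116 genes, a C/D repeat family in the SNHG14 transcript of the Prader-Willi locus, were listed for 14 genes in IP replicate 1, of which 13 were below 0 with a median log2 fold of -2.27, and for 6 genes in IP replicate 2, of which 4 were below 0 with a median of -0.60. No region was listed for SNORD113 to SNORD115 genes. The 4 SNORA71 genes had medians of -3.14 and -1.47. SNORD108, listed in IP replicate 1 alone, had a log2 fold of 2.75 with a -log10 p of 33.5, and SNORD72, within RPL37, had 1.08 and 1.59.

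The order of the ends within genes was compared by class. Among SNORA genes with at least 2 regions spanning at most 400 bases, the 5′-most region had the higher log2 fold in 26 of 37 genes of IP replicate 1 and in 9 of 32 of IP replicate 2. For SNORD genes it was 27 of 42 and 15 of 22, and for SCARNA genes 6 of 9 and 1 of 8. In other non-coding exons it was 75 of 171 (43.9%) and 45 of 133 (33.8%). Ties counted as not higher, and the median difference of 5′ minus 3′ in these exons was 0 in both lists. For SNORD genes that median was 0.08 in IP replicate 1 and 0.15 in IP replicate 2. The 5′-most region was thus more often the higher in both lists for SNORD genes, and in IP replicate 1 alone for SNORA and SCARNA genes, with no test made. In SNORA74A (U19), singled out after its values were seen, the 5′ region had -0.06 and 2.42 and the 3′ region -3.13 and -2.06, so the IP replicates shared the order but not the level of the 5′ region.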
